A study of Mus musculus with 6 samples.

Results

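Interferon response genes are the genes that cells switch on after an interferon signal, and the set described here also holds the STAT and IRF factors that carry the signal and Ifng, which encodes interferon gamma itself. The 40 members were picked by gene symbol as known genes of type I and type II interferon responses, and all 40 were found among the 23420 genes of the table. The data were RNA-seq counts from whole uteri of 8-week-old C57BL/6J females that had been mated with vasectomized males and were sampled on day 4.5 of pseudopregnancy, the time at which the uterus is receptive to an embryo. Control animals had the genotype Foxo1f/f, in which a coding exon of the transcription factor gene Foxo1 is flanked by loxP sites on both alleles. Conditional knock-out animals had the genotype PgrCre/+ Foxo1f/f, called Foxo1d/d here. Each genotype had 3 libraries, and each library was a pool of 2 mice, so 6 mice stood behind each genotype. Since the males were vasectomized, no embryo was present in either group.

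The design limits what a difference between these groups can mean. The Cre recombinase is made from the progesterone receptor locus, so Foxo1 can be lost wherever that receptor is made. Within the uterus this takes in epithelium, stroma and muscle, and outside it the ovary's granulosa cells, the pituitary and the mammary gland. The Cre allele was carried by the Foxo1d/d animals alone, so the loss of Foxo1 and the loss of 1 Pgr copy to Cre cannot be told apart. The table held the authors' mean count of each gene per genotype, and the spread between libraries cannot be read from such means. The differences given here therefore have no replicate check of their own, and the authors' test was not used here. In whole tissue, fewer cells of a type and less RNA per cell cannot be told apart.

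Interferons are secreted proteins that warn cells of infection. Type I interferons (alpha, beta, epsilon and others) and type III interferons (lambda) act through STAT2 and IRF9 at a DNA element called the ISRE, while interferon gamma, the type II interferon made mainly by T cells and natural killer cells, acts through a second element, GAS. In the uterus, interferon gamma from natural killer cells is known for its part in remodelling the vessels of early pregnancy, and interferon epsilon is made by the epithelium of the female reproductive tract.

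The summed counts were 78375043 for controls and 81773890 for Foxo1d/d, or 26125014 and 27257963 per library on average. Every ratio below is Foxo1d/d over Foxo1f/f, after division of each mean count by its genotype's mean total, and log2 ratios were computed with 1 added to both mean counts. The 95% interval beside a log2 ratio is a Wilson interval from the summed counts of both genotypes, and it covers counting error only. Reads were copied by PCR, and the study's methods name removal of duplicate reads before counting but no molecular identifiers, so the counts may differ from numbers of independent molecules. A gene was counted as higher or lower where this log2 ratio was at least 1.5-fold, while folds are printed without the added count. Where a pair of counts or levels is given, Foxo1f/f stands before Foxo1d/d.

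Foxo1, the targeted gene, had an authors' mean count of 3941 in controls and 1456 in Foxo1d/d. It was 2.82-fold lower in Foxo1d/d, with a log2 ratio of -1.50 (interval -1.55 to -1.45). The deletion removes a coding exon in cells with progesterone receptor, while the counts cover the whole gene, so reads outside the deleted part can still count. Pgr, the locus that carries the Cre, had mean counts of 5469 and 6551. The tissue matched its label: Hoxa10 and Hoxa11, which mark the uterus, had mean counts of 14268 and 7606 in Foxo1f/f, and Krt8 and Krt18 of the epithelium had 2612 and 3831.

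Of the 40 members, 4 were at least 1.5-fold higher in Foxo1d/d and 2 were at least 1.5-fold lower. Among the 15696 genes whose count averaged at least 10 over the genotypes, 5.43% were higher and 3.51% lower by the same rule, and all 40 members had that count. The members past 1.5-fold were Ifng, Ifi44l, Mx1 and Igtp in the higher direction and Oas2 and Oas3 in the lower direction. The other 34 members lay between. The interval lay above 0 for 21 members and below 0 for 11, against 36.7% and 27.3% of all genes, and it included 0 for 8 members. At this depth an interval that excludes 0 is common and can go with a small ratio. The median log2 ratio of the members was 0.08, and that of all genes was 0.02.

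**Figure D1:**
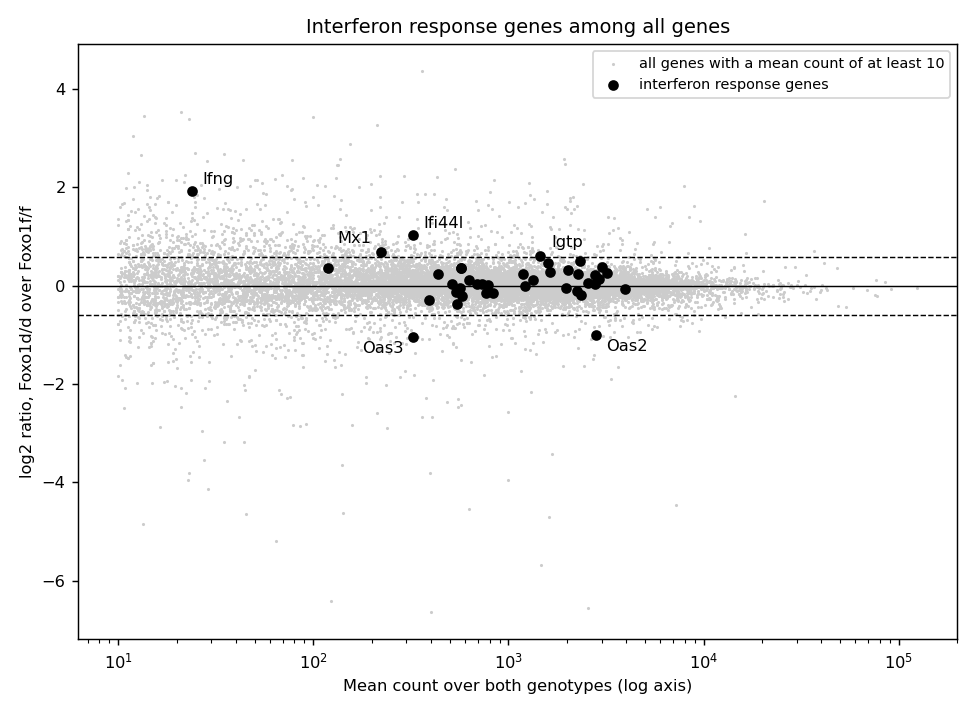
Mean count over both genotypes (horizontal, log axis) against log2 of Foxo1d/d over Foxo1f/f (vertical). Grey points are the 15696 genes averaging at least 10 counts, black points are the 40 interferon response genes, and dashed lines mark 1.5-fold; 6 members lie outside the lines, and Ifng lies farthest from 0.

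Levels can be compared between genes only per length of exon, and they are given here as CPM per kilobase of exon. CPM is the authors' mean count as a share of its genotype's mean total, on the usual scale. On that scale Bst2, which encodes tetherin, a membrane protein that holds budding virus on the cell surface, had the highest level of the 40 members in Foxo1f/f at 108. Oas2 followed at 31.7, and Gbp2 at 29.7. Ifng was the lowest at 0.266, with Oasl1 at 1.48 and Mx1 at 1.66 next to it. In Foxo1d/d the level of Oas2 was 15.8 and that of Bst2 was 142.

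**Figure D2:**
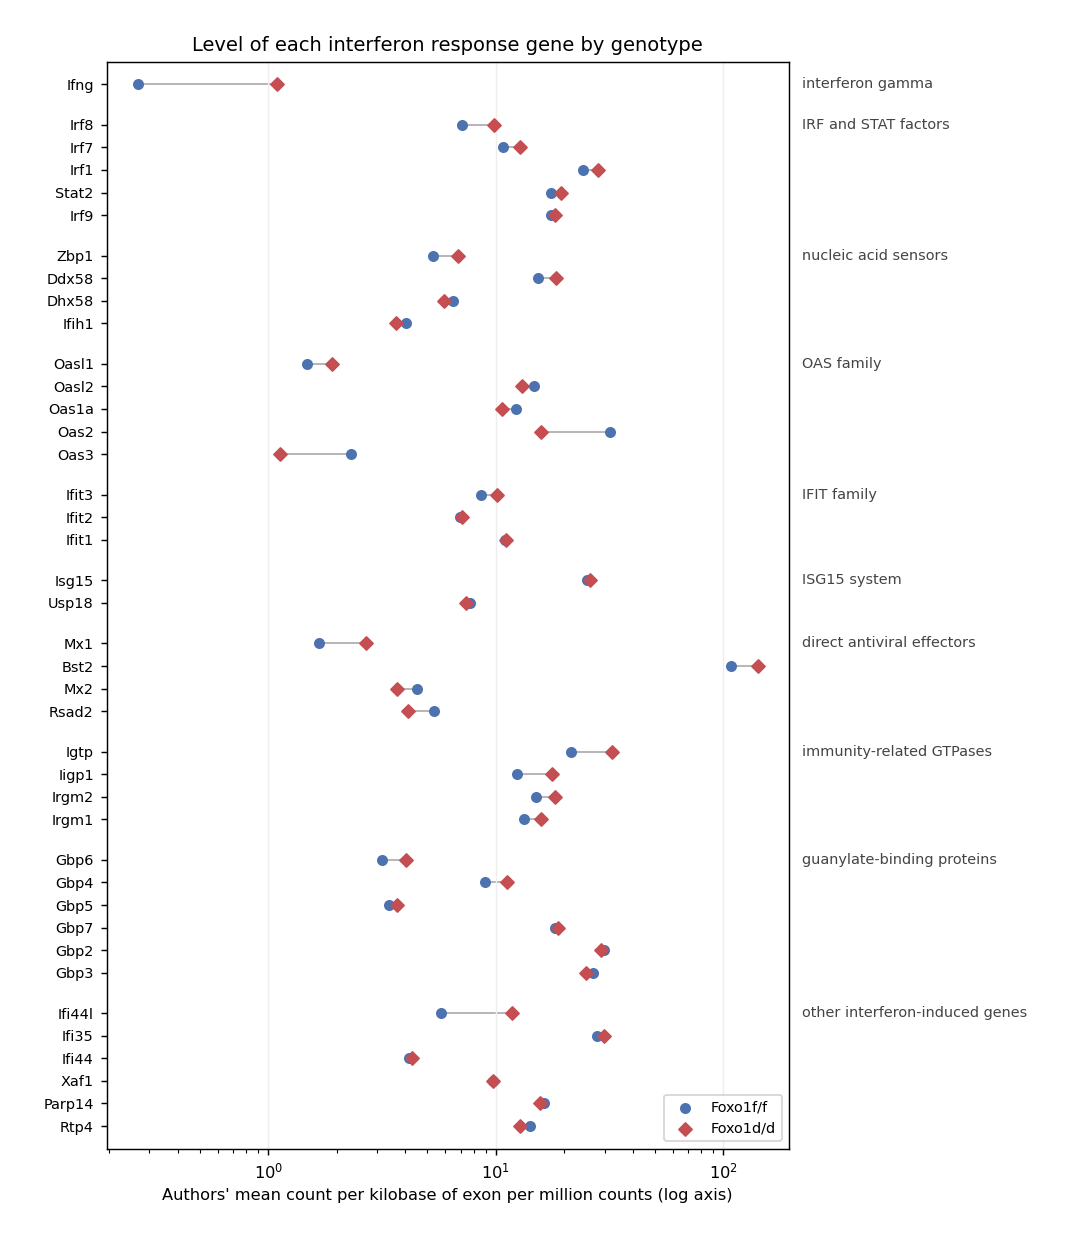
Authors' mean count as CPM per kilobase of exon (horizontal, log axis) for the 40 members, grouped by role. Circles are Foxo1f/f and diamonds are Foxo1d/d, each the mean of 3 libraries without a spread; the widest gaps are at Ifng (0.266 and 1.10), Ifi44l (5.73 and 11.7), Oas2 (31.7 and 15.8) and Oas3 (2.32 and 1.13).

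Interferon gamma was scarce in both genotypes and higher in Foxo1d/d. Ifng had an authors' mean count of 9 in controls and 38.7 in Foxo1d/d, which is 27 and 116 counts summed over the libraries. The scaled means were 4.12-fold apart, and the log2 ratio was 1.93 (interval 1.44 to 2.64). Among the 40 members this was the largest ratio and also the widest interval. The 250 bases before its start (RefSeq sequence, GRCm38.p6, chr10:118440796-118441045, plus strand) are shown because Ifng had the highest ratio of the set, with a GAS match, TTCNNNGAA, in capitals at their far end.

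Ifng: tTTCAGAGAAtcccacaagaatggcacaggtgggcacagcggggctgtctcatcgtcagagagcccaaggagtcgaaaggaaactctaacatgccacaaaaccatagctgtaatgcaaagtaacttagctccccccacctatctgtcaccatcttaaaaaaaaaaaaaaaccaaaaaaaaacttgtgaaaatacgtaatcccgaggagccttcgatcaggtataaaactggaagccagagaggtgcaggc

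Ifng is transcribed mainly by T cells and natural killer cells, and the summed levels of both marker lists were higher in Foxo1d/d. Of 10 T cell markers, 8 were at least 1.5-fold higher and none lower, with a median log2 ratio of 1.09. Their summed level was 246 CPM in controls and 303 in Foxo1d/d, most of it from Thy1 (206 and 236), which uterine cells other than T cells also express. None of the 10 was at 0. Of 12 natural killer cell markers, 10 had a mean count of at least 10, and 2 of these were at least 1.5-fold higher and 0 lower, with a median log2 ratio of 0.33. The summed level of all 12 was 156 and 197 CPM, the marker with the highest level per kilobase of exon was Gzmb in controls (20.5 and 20.3) and Gzma in Foxo1d/d, and Klra4 was at 0 in both genotypes. The part of these cells in the Ifng value was not tested.

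The IRF and STAT factors, which read the interferon signal, differed little. All 5 had an interval above 0 and none passed 1.5-fold, with log2 ratios from 0.06 for Irf9 to 0.47 for Irf8. Irf8 is also a defining factor of macrophages and dendritic cells. Irf7 and Irf1, which amplify type I and gamma responses, had log2 ratios of 0.25 and 0.21, and Stat2 had 0.15. The sensors of foreign nucleic acid were mixed: Zbp1 (0.36) and Ddx58, the RIG-I gene (0.27 on the log2 scale), had intervals above 0, and Dhx58 (-0.13) and Ifih1, the MDA5 gene (-0.14), had intervals below 0.

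The OAS family held both members that were lower. OAS enzymes make short adenylate chains that switch on an RNase in infected cells. Oas2 had an authors' mean count of 3681 in controls and 1912 in Foxo1d/d. It was 2.01-fold lower, with a log2 ratio of -1.01 (interval -1.05 to -0.96). Oas3 had mean counts of 428 and 218 and was 2.05-fold lower, with a log2 ratio of -1.03 (interval -1.17 to -0.90). They are neighbours in the OAS cluster on chromosome 5 and were not listed among the members that can share reads with close paralogs. Oas1a, in the same cluster, had mean counts of 606 and 544, at a log2 ratio of -0.22 (interval -0.31 to -0.12). Oasl2 had mean counts of 2452 and 2253, at a log2 ratio of -0.18 (interval -0.23 to -0.14). Oasl1 went the other way at low counts, 101 and 136, with a log2 ratio of 0.37 (interval 0.15 to 0.58). Over all 5 members the summed level was 278 CPM in Foxo1f/f and 186 in Foxo1d/d.

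The sequence before Oas3 (RefSeq, GRCm38.p6, chr5:120777685-120777909, minus strand, 225 bases) is shown because this was the lowest ratio of the set. The 250 bases before Ifi44l (GRCm38.p6, chr3:151762892-151763141, minus strand) are shown because its ratio was the highest after that of Ifng. Capitals mark matches to the ISRE core, GAAANNGAA or its reverse complement TTCNNTTTC.

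Oas3: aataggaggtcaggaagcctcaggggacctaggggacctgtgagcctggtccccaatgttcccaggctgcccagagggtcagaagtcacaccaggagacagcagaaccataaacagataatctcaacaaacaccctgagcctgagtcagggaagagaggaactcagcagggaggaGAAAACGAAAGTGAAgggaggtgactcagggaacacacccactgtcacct

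Ifi44l: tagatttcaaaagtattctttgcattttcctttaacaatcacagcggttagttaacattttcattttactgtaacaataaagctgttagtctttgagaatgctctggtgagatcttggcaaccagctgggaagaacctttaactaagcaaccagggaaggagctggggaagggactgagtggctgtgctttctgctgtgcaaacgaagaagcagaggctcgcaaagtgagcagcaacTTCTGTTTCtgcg

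Oas3 held 2 overlapping matches, the nearer of which began 69 bases before the start, and Ifi44l held 1, which began 13 bases before it. These genes were picked by their ratios, 1 lower and 1 higher, and the part of the core in either ratio was not tested.

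Ifi44l led the other interferon-induced genes. It had authors' mean counts of 206 and 439 and was 2.04-fold higher in Foxo1d/d, with a log2 ratio of 1.03 (interval 0.89 to 1.17). Its neighbour and paralog Ifi44 had mean counts of 666 and 716, at a log2 ratio of 0.04 (interval -0.04 to 0.13). The function of either gene is poorly known, and because they are related, reads may have been split between them. Ifi35 had mean counts of 1251 and 1407, at a log2 ratio of 0.11 (interval 0.04 to 0.17). Xaf1, an apoptosis regulator, had mean counts of 1194 and 1246, at a log2 ratio of 0.00 (interval -0.07 to 0.07), whose sign turned with the scaling. Parp14, an ADP-ribosyltransferase, had mean counts of 3956 and 3954, at a log2 ratio of -0.06 (interval -0.10 to -0.03). Rtp4, a chaperone of membrane receptors, had mean counts of 789 and 741, at a log2 ratio of -0.15 (interval -0.24 to -0.07).

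The direct antiviral effectors went in both directions. Mx1, a dynamin-like GTPase that blocks influenza virus, had authors' mean counts of 164 and 278. It was 1.62-fold higher in Foxo1d/d, with a log2 ratio of 0.69 (interval 0.54 to 0.86). Its paralog Mx2 had mean counts of 423 and 362, at a log2 ratio of -0.28 (interval -0.40 to -0.17). Both are annotated by RefSeq as transcribed pseudogenes in this strain's genome, and the pair can share reads. Bst2 had mean counts of 2553 and 3485, at a log2 ratio of 0.39 (interval 0.35 to 0.43). Rsad2, which encodes viperin, an enzyme that makes a chain-ending nucleotide, had mean counts of 607 and 487, at a log2 ratio of -0.38 (interval -0.48 to -0.28).

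The immunity-related GTPases, which attack the vacuoles of intracellular parasites and answer mainly to interferon gamma, had 4 of 4 log2 ratios above 0 beyond counting error, and 1 passed 1.5-fold. Igtp had authors' mean counts of 1124 and 1785 and was 1.52-fold higher in Foxo1d/d, with a log2 ratio of 0.61 (interval 0.54 to 0.67). It passed 1.5-fold by little, and under both other scalings tried it was below the rule. Iigp1 had mean counts of 1879 and 2786, at a log2 ratio of 0.51 (interval 0.46 to 0.56). Irgm2 had mean counts of 1446 and 1832, at a log2 ratio of 0.28 (interval 0.22 to 0.34), and Irgm1 had 2016 and 2501 and a log2 ratio of 0.25 (interval 0.20 to 0.30). Their summed level was 247 CPM in Foxo1f/f and 327 in Foxo1d/d. Igtp and Irgm2 lie side by side on chromosome 11, and the stretches around their ISRE core are nearly the same. These stretches (RefSeq, GRCm38.p6, plus strand, chr11:58199496-58199555 and chr11:58214887-58214947, both before the gene) are shown with the core in capitals.

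Igtp: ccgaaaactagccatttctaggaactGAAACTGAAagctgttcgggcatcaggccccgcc

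Irgm2: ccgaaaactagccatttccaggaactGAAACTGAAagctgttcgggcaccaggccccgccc

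Over the 60 bases that align, 58 were identical. The ratios of these genes were 1.52-fold and 1.21-fold, and the part of this sequence in them was not tested.

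The remaining families had no member past 1.5-fold. The guanylate-binding proteins, large GTPases that act with the immunity-related GTPases, had log2 ratios from -0.11 for Gbp3 to 0.35 for Gbp6, with a median of 0.08. Of these 6 genes, 3 had an interval above 0 and 1 had an interval below 0. Those with the highest ratios were Gbp6 (interval 0.26 to 0.45) and Gbp4, at 0.32 (interval 0.27 to 0.37). The IFIT genes, whose proteins bind viral RNA, had log2 ratios of 0.24 for Ifit3, 0.03 for Ifit2 and 0.02 for Ifit1. The interval lay above 0 for Ifit3 (0.13 to 0.35) and included 0 for Ifit2 and Ifit1, and the ratio of Ifit1 turned sign with the scaling. Isg15, the ubiquitin-like modifier that is among the most responsive of all interferon-induced genes, had a log2 ratio of 0.04 (interval -0.06 to 0.14). Usp18, which removes Isg15 from proteins and dampens the type I receptor, had a log2 ratio of -0.05 (interval -0.15 to 0.05). For both genes the difference was within counting error at authors' mean counts of 496 and 532 and of 559 and 564.

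**Figure D3:**
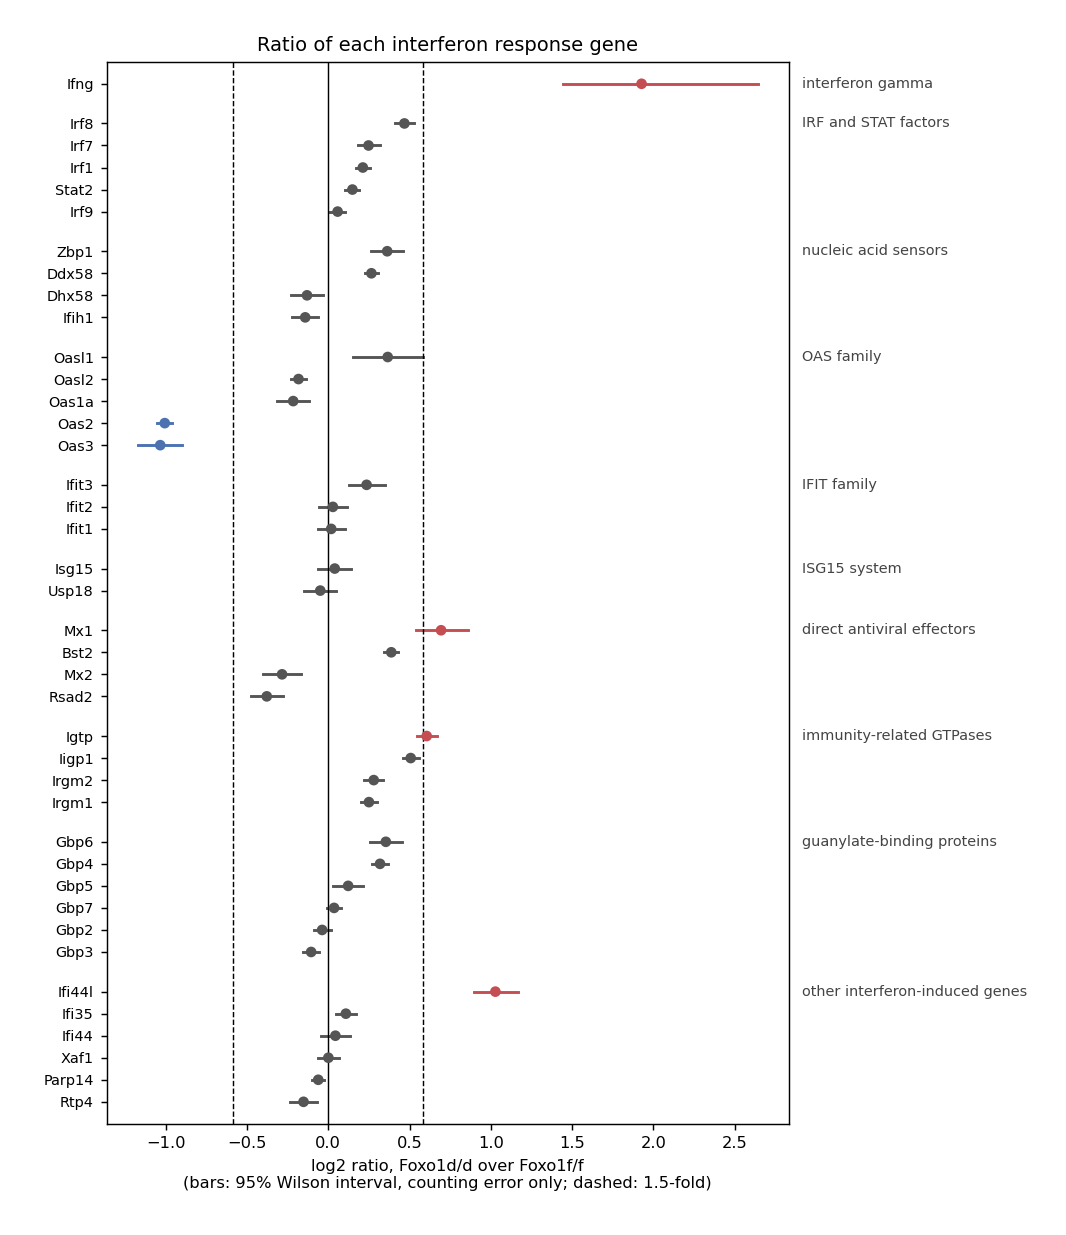
Log2 of Foxo1d/d over Foxo1f/f (horizontal) for each of the 40 members by role, with 95% Wilson intervals for counting error as bars and 1.5-fold as dashed lines. Ifng, Ifi44l, Mx1 and Igtp lie beyond the right line and Oas2 and Oas3 beyond the left line; Igtp falls inside the right line under both other scalings, under which Ifit1 and Xaf1, near 0, change sign.

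The members were also grouped by the interferon that mainly induces them. The 27 members induced mainly by type I and III interferon had a median log2 ratio of 0.03, with 2 higher and 2 lower by 1.5-fold. The 12 members induced mainly by interferon gamma had a median of 0.26, with 1 higher and 0 lower, and 9 of them had an interval above 0. The difference between these medians was not tested, since genes are not replicates.

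Other genes of the pathway were read in the same way. Of 18 type I and III interferon genes in the table, 10 had a count of 0 in both genotypes. By counting error alone this allows up to 0.0383 CPM in controls and 0.0367 in Foxo1d/d. Most of the 10 are interferon alpha genes, which are paralogs. Reads that paralogs share may go uncounted, so these values are no upper limit on expression. Ifne, the interferon of the reproductive tract epithelium, was the single one of the 18 to reach the count minimum. It had authors' mean counts of 10 and 19.7, 1.88-fold higher in Foxo1d/d, with a log2 ratio of 0.85 (interval 0.29 to 1.54). None of the 9 receptors and kinases passed 1.5-fold, with log2 ratios from -0.23 to 0.28. Among 8 negative regulators, Socs1, which blocks the receptor kinases, was higher by 1.75-fold (210 and 383). Among 11 sensor adaptors and kinases, Myd88, the adaptor of most Toll-like receptors, was higher by 2.11-fold (2059 and 4528). No gene of these lists with the count minimum was lower by 1.5-fold.

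Further interferon-induced genes were also described by list. Of 39 with the count minimum, 5 were at least 1.5-fold higher and 0 lower, with a median log2 ratio of 0.05. The largest were Gbp8 (mean counts 135 and 296), Tgtp2 (242 and 462), Gbp11 (28 and 54) and Gbp10 (132 and 216), all GTPases of the interferon gamma response, and the fifth, Tgtp1, was below the rule under both other scalings. Gvin1, a giant GTPase gene, had a count of 0 in both genotypes, and the reason was not examined. Genes of antigen presentation and chemokines that interferon gamma induces were described by a list of their own: of 19 with the count minimum, 6 were at least 1.5-fold higher and 0 lower, 17 had an interval above 0, and the median log2 ratio was 0.47. Those with the largest ratios were Cxcl9 (62 and 131) and Cxcl10 (45.7 and 86), chemokines that draw T cells, Ido1 (19.3 and 36.3), which breaks down tryptophan, and Socs1.

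Many members are expressed in leukocytes, and the summed levels of the other leukocyte lists were also higher in Foxo1d/d, while 0 macrophage markers, 0 of the 4 genes of all leukocytes and 1 of 4 neutrophil markers with the count minimum passed 1.5-fold. The 4 genes of all leukocytes had a median log2 ratio of 0.44, and their summed level was 288 CPM in Foxo1f/f and 385 in Foxo1d/d, with Coro1a the highest per kilobase of exon (24.3 and 34.0), the scale on which the top marker of each list is named below for both genotypes. Dendritic cell markers were higher by 1.5-fold in 5 of 9 and lower in 0, or higher in 4 of 9 with the other scalings, with a median of 0.60, at a summed level of 71.1 and 99.4 CPM with Cd209a the highest (5.42 and 8.05). For 9 macrophage markers the counts were 0 higher and 0 lower, with a median of 0.21, a summed level of 532 and 613, and C1qa the highest (86.7 and 109); 8 had an interval above 0 and 1 below. Of 5 B cell markers found, 3 had the count minimum, of which 2 were higher and 0 lower, with a median of 0.76. The summed level of all 5 was 3.15 and 5.55 CPM, Cd79b being the highest (1.15 and 1.97). Of 5 neutrophil markers found, 4 had the count minimum, of which 1 was higher and 0 lower, with a median of 0.49. The summed level of all 5 was 12.7 and 17.6 CPM, Retnlg being the highest (3.36 and 4.17). No marker of these leukocyte lists was at 0. The part of leukocyte number in the members' values was not tested.

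Tissue markers were read alike, with the top marker per kilobase of exon in brackets. No marker of stroma, smooth muscle or endothelium passed 1.5-fold. Stroma had a median log2 ratio of -0.05 and a summed level of 10316 and 10067 CPM (Col3a1), smooth muscle -0.30 and a summed level of 6561 and 5287 (Acta2), and endothelium -0.22 and a summed level of 1127 and 969 (Cdh5). Of 8 epithelial markers, 1 was higher and 1 lower by 1.5-fold, with a median of 0.17 and a summed level of 754 and 884 CPM (Cldn3). Of 2 gland markers found, 1 was lower by 1.5-fold: Prss29 had authors' mean counts of 13746 and 652, while Foxa2, which marks gland nuclei, had 279.7 and 299.7, and the summed level of both was 537 and 34.9 CPM. The part of these cell types in the ratios of Oas2 and Oas3 was not tested.

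**Figure D4:**
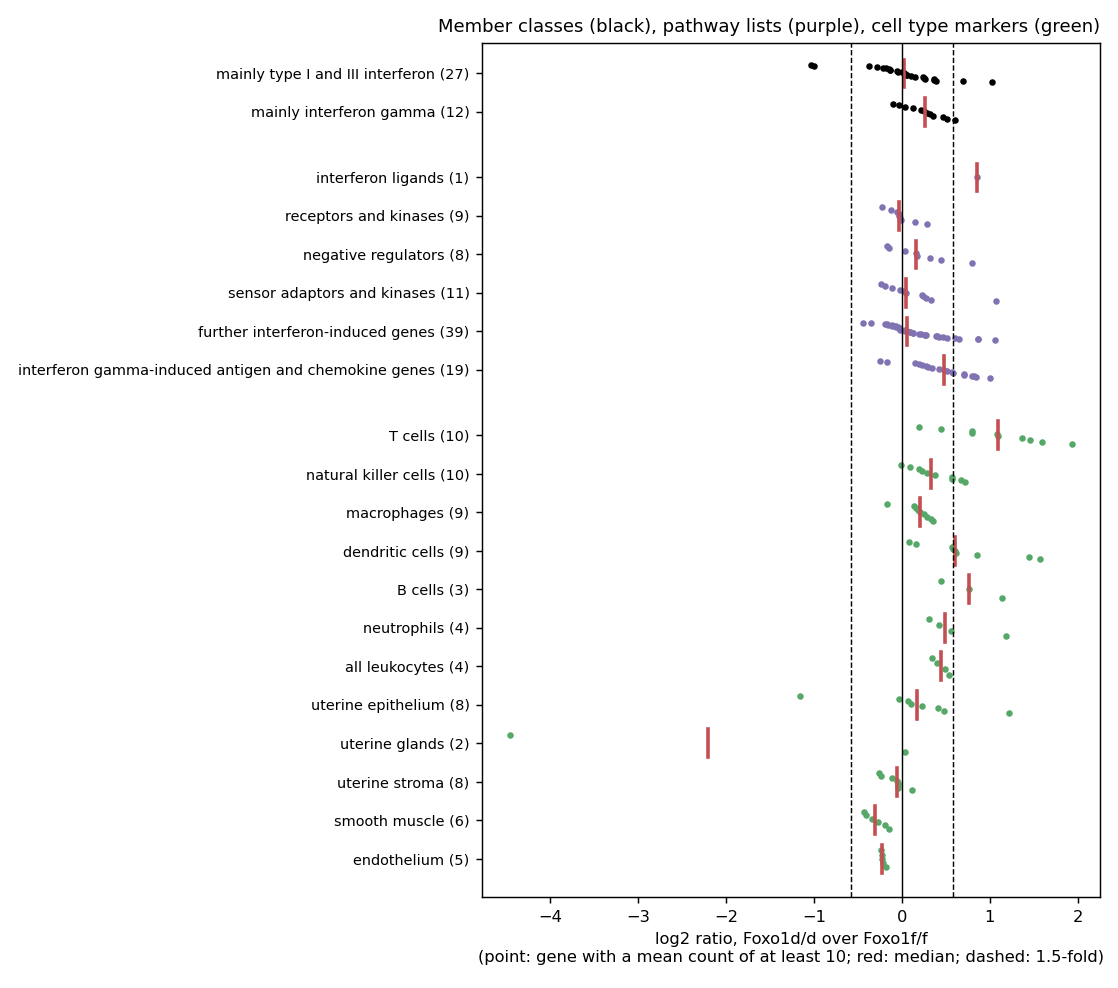
Log2 of Foxo1d/d over Foxo1f/f (horizontal) for genes averaging at least 10 counts, by list. Black points are members by class, purple points pathway lists and green points cell type markers, with the number of genes in brackets, medians as red lines and 1.5-fold as dashed lines; the T cell median is 1.09 and that of members induced mainly by interferon gamma is 0.26.

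Promoter sequence was described for the members as well. They were chosen as known interferon response genes, and interferons act through ISRE and GAS. A high share of these motifs is therefore tied to that choice and is no independent finding. RefSeq promoter windows (GRCm38.p6, 250 bases before to 50 after each start) matched 29 of the 40 members by symbol. The members without a window in the table were Dhx58, Gbp4, Gbp6, Iigp1, Mx1, Mx2, Oas2, Parp14, Rtp4, Usp18 and Zbp1. The ISRE core, GAAANNGAA on either strand, occurred in 19 of the 29 members (65.5%) and in 9.76% of all 27025 genes with a window. GAS, TTCNNNGAA, which reads the same on both strands, occurred in 11 of the 29 (37.9%) and in 9.55% of all genes. A forkhead core, TGTTTAC on either strand, which FOXO factors among others can bind, occurred in 2 of the 29, Gbp3 and Rsad2, and in 4.05% of all genes. Counted by window, the shares of all 32851 windows were 8.56%, 8.30% and 3.65%. ISRE core and GAS can overlap, since both can use the same GAA or TTC, and 6 members held both.

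Of the 11 members with GAS, 10 had a log2 ratio above 0, and of the 19 with an ISRE core 13 did, or 12 under the other scalings. Of all genes with the count minimum 55.1% were above 0, and of the 18 members without GAS 12 were, or 10 under the other scalings. Of the 10 members without an ISRE core 9 were above 0, or 8 under the other scalings. These differences were not tested. The median log2 ratio was 0.04 for the 19 members with an ISRE core and 0.16 for the 10 without, and 0.21 for the 11 members with GAS and 0.04 for the 18 without. Stretches before the start are shown for members with the core at a ratio below 0 (Rsad2), near 0 (Isg15, Ifit1) and above 0 (Bst2), in capitals where the core matches. In GRCm38.p6 they lie at chr12:26456537-26456597 (minus strand), chr4:156200850-156200910 (minus), chr19:34640779-34640839 (plus) and chr8:71537562-71537622 (minus), each before its gene.

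Rsad2: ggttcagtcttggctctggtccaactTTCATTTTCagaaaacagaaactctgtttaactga

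Isg15: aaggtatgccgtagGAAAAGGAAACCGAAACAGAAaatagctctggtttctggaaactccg

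Ifit1: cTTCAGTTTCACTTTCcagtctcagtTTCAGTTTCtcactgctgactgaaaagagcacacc

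Bst2: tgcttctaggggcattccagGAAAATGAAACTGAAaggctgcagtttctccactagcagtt

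In these stretches Isg15 held 3 overlapping matches, Ifit1 held 3, some of them overlapping, Bst2 held 2 overlapping matches and Rsad2 held 1. Overlapping matches were counted separately, so a run of them may be a single element. Isg15 and Ifit1 had ratios near 0, and the part of the matches in the ratios was not tested. The GAS stretches of the factors Irf1 (chr11:53769898-53769958, plus strand) and Irf8 (chr8:120736179-120736239, plus strand), before each gene in the same build, are shown with GAS in capitals, since both are textbook targets of interferon gamma.

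Irf1: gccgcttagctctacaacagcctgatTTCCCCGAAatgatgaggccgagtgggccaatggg

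Irf8: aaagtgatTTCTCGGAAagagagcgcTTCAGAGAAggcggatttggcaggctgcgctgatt

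The forkhead matches of Gbp3 (chr3:142559794-142559837, plus strand) and Rsad2 (chr12:26456632-26456690, minus strand), before each gene in the same build, are in capitals below; the log2 ratios of these genes were -0.11 and -0.38. A match describes the letters and does not show that a factor was bound.

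Gbp3: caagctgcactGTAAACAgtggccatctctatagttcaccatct

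Rsad2: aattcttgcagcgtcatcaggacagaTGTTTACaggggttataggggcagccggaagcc

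**Figure D5:**
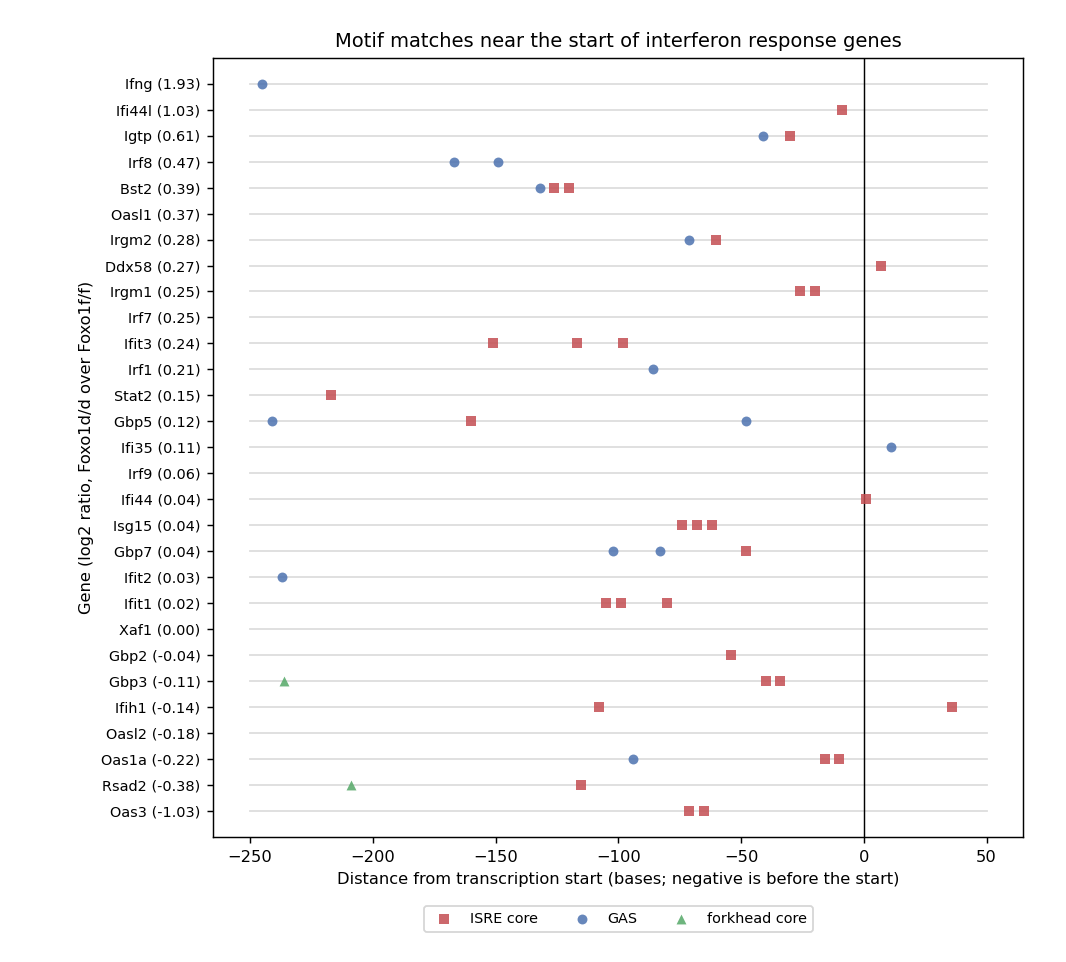
Centres of motif matches by distance from the transcription start in bases (horizontal, negative before the start) for the 29 members with a promoter window, ordered by log2 ratio, which stands in brackets. Squares are ISRE cores, circles GAS and triangles forkhead cores. Of 31 ISRE core matches, with overlapping ones counted separately, 28 are centred before the start and 19 of these within 100 bases of it.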

How the data were processed

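Per the labels, RNA was isolated with the Qiagen RNeasy Kit and libraries were made with the Illumina TruSeq RNA protocol. The submitters' processing notes name STAR, Picard, HTSeq and edgeR without versions. The study's methods say that duplicate reads were removed with Picard before counting. The notes name the mm9 build and the study's methods name mm10; the table has no coordinates, and positions printed here are RefSeq's in GRCm38.p6. The authors deposited, for each gene, a mean count over the libraries of a genotype; times 3, every mean is a whole number to within 1.05e-09. Another 4 columns hold the authors' own comparison by edgeR (fold change, level, p-value and adjusted p-value) and were not used.

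Mean counts were divided by genotype totals. Log2 ratios used a pseudocount of 1, intervals were 95% Wilson intervals of summed counts, and the steps were tested on simulated data. Promoter sequence was shown only outside the annotated gene span. Exon lengths are unions of GENCODE M21 exons. Paralogs may share reads, and strand in counting is not given in the sources used here. Reads that match several genes may go uncounted, so a count of 0 does not show that a gene had no RNA. Alternatives were other scalings, pseudocounts, fold rules, count minimums and leaving out paralogs. Full values were given for members past 1.5-fold and for others of their role group, further lists by at most the 4 largest ratios past 1.5-fold, and markers by the gene with the highest level per kilobase of exon and genes at 0; Hoxa10, Hoxa11, Krt8, Krt18, Foxa2 and other genes were named after their values were seen. The members and lists were chosen with earlier results of these data known. Ifna15, Ifna16, Ifi27, Ifit3b, Adgre1, Ly6g and Cxcl15 of the lists were not analysed here. Python 3.11.15, numpy 2.4.6, pandas 2.3.3 and matplotlib 3.10.9 were used.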

Additional observations from a re-analysis of the deposited data

How the results depend on the processing

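The members higher by 1.5-fold numbered 4, and 3 with ratios centred on the median gene or scaled by a trimmed mean of log ratios, where Igtp fell below the rule. Without the 16 members whose paralogs can share reads the number was 1 (Ifng), with the more lenient fold rule tried 10 (12.5% of all genes passed it) and with a 2-fold rule 2 (1.99% of all genes). The members lower by 1.5-fold numbered 2 under every alternative but that lenient rule, which gave 3 (1412 of all 15696 genes); the 2-fold rule held 1.40% of all genes in that direction. Leaving out the paralogs also took the members beyond counting error from 21 to 12 higher and from 11 to 7 lower, because fewer members were counted, and the other scalings gave 20 and 12. The median log2 ratio of the members ran from 0.05 to 0.08 over all alternatives. With a mean count of at least 100, an alternative chosen after seeing the data, 39 members were left, of which 3 were higher and 2 lower, against 3.17% and 2.14% of 12950 such genes. The other scalings subtract 0.02 and 0.03 on the log2 scale, under which each member's ratio kept within its counting interval, and Ifit1 and Xaf1 changed sign. Ifng, at 27 and 116 summed counts, is the member whose ratio depth limits most. No paired analysis was possible because the table holds a mean per genotype and no single libraries, and for the same reason leaving out each library was not run. From means alone the ratios given here cannot be set against variation between pools of mice, and the authors' own test was not used.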

Other observations

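Some families are given here by position, with no test. The 4 guanylate-binding protein genes of the lists on chromosome 3 (Gbp2, Gbp3, Gbp5 and Gbp7) had log2 ratios from -0.11 to 0.12, with 0 past 1.5-fold. The 6 on chromosome 5 (Gbp4, Gbp6, Gbp8, Gbp9, Gbp10 and Gbp11) had log2 ratios from -0.02 to 1.06, with 3 at least 1.5-fold higher and Gbp9, at -0.02, within the range of the chromosome 3 genes; their sequences are close, so reads may have been split between them. In the OAS cluster on chromosome 5, 7 of 10 genes in the table had a mean count of at least 10, and 6 of these had a log2 ratio below 0, from -1.03 for Oas3 to -0.17 for Oas1g, against 44.9% of all genes below 0. The interval lay below 0 for 4 of the 7 and included 0 for 3: Oas1g (-0.35 to 0.00), Oas1h (-0.92 to 0.12) and Oas1c (-0.12 to 0.25), whose log2 ratio was 0.07. Dtx1, the gene next to Oas2 on the other side, had a log2 ratio of -0.16. These groupings were chosen after the values were seen.

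Neighbours of the higher members differed. Dyrk2, next to Ifng, had a log2 ratio of -0.16, and Ptgfr, next to Ifi44l, had -0.16. Fam3b, between Mx1 and Mx2, had authors' mean counts of 3 and 19.3, at a log2 ratio of 2.28 (interval 1.63 to 3.62), and Bace2, on the other side of Mx1, had 587 and 890 and a log2 ratio of 0.54 (interval 0.45 to 0.63). Gm12250, next to Igtp, had 236 and 418 and a log2 ratio of 0.76 (interval 0.63 to 0.90). Neighbours were taken by position alone. Whether Gm12250 is related to Igtp or is itself induced by interferon was not examined here.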
